A study of Mus musculus with 6 samples.

Results

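Carbonic anhydrases convert carbon dioxide and water to bicarbonate and a proton, a reaction that sets intracellular and extracellular pH and carries carbon dioxide out of working tissue. Mammals have cytosolic, mitochondrial and membrane-bound isozymes, and related proteins that lack the zinc ligands needed for catalysis. In cardiac muscle the membrane-bound isozymes act outside the sarcolemma and inside internal membranes, where they work beside bicarbonate transporters and proton exchangers. The 10 genes described here (Car2, Car3, Car4, Car5b, Car8, Car9, Car11, Car12, Car13 and Car14) were found by symbol among the 24421 genes of a table of FPKM, a read count scaled by transcript length and library size. That table held 16 carbonic anhydrase symbols in all, and the other 6 are given by value near the end. The 10 were chosen with the FPKM and the group comparison of these same libraries already known, so their levels and differences are a description and carry no test.

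Gas2l3 encodes a cytoskeletal linker between actin filaments and microtubules, and the title of the study ties its loss to faulty division of heart muscle cells. Hearts of Gas2l3 -/- embryos (3 libraries) were compared with hearts of wildtype embryos (3 libraries), all at stage E18.5 and of strain C57/Bl6. Poly(A) RNA of the tissue was sequenced. The labels state neither which part of Gas2l3 was deleted nor whether libraries of a group are from different embryos. P-values and SDs thus measure only the spread between these libraries, which may be technical.

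The libraries held between 3414257 and 7732674 whole reads, recovered from the deposited values. All 9 cardiomyocyte markers were present, led by the ventricular light chain gene Myl2 at 12241 ± 1554 FPKM in Gas2l3 -/- and 16186 ± 3395 FPKM in wildtype hearts (SD, n = 3 each). Gas2l3 itself was at 4.03, 2.99 and 3.06 FPKM in Gas2l3 -/- replicates 1, 2 and 3 and at 10.3, 4.12 and 2.48 FPKM in wildtype replicates 1, 2 and 3. These ranges overlapped, so the value per gene does not check the genotype and directions below follow the labels. Wildtype replicate 3 stood apart: its mean correlation with the other libraries across genes was 0.899, against 0.935 to 0.957 for the rest, and its deviations from the gene means correlated with GC content at 0.702 across genes.

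Car14 was the most abundant carbonic anhydrase mRNA in every library. It averaged 44.8 FPKM over the 6 libraries, above 85.3% of the 12121 genes that reached 1 FPKM in at least 3 libraries. Among the 10 genes Car2 followed at 8.49 FPKM, then Car8 at 5.09, Car11 at 3.20, Car3 at 3.01, Car4 at 2.03, Car13 at 1.62 and Car9 at 1.498 FPKM. Car5b and Car12 averaged 0.234 and 0.144 FPKM and did not reach the 1 FPKM minimum in any library. Of the 10 genes, 8 therefore entered the fit over all genes.

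**Figure D1:**
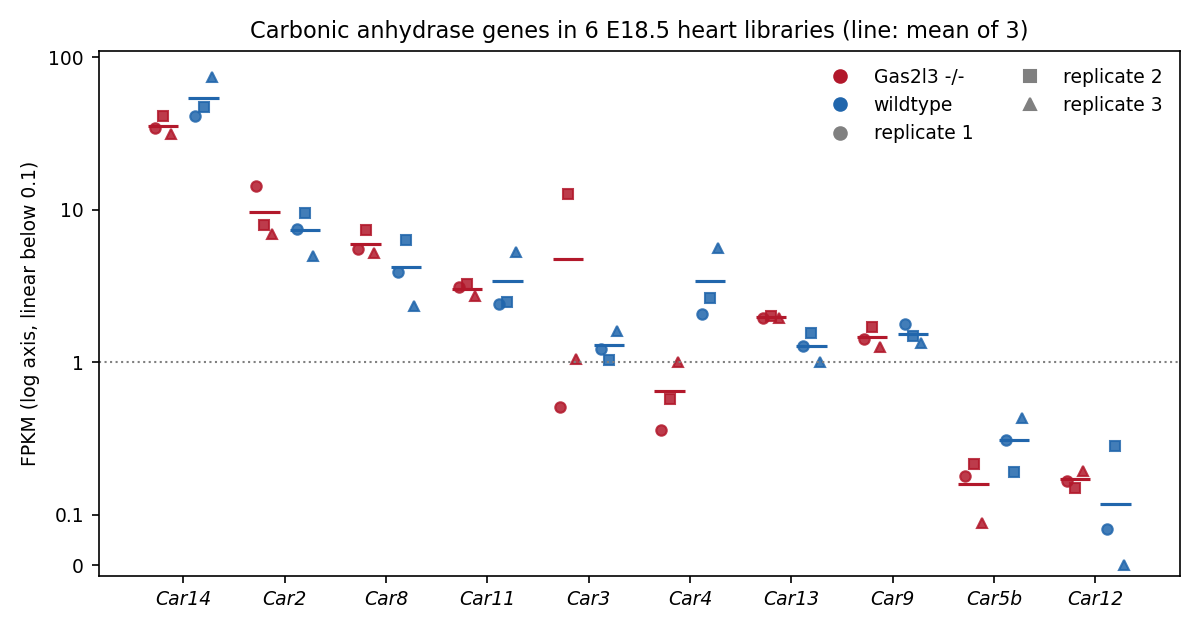
FPKM of the 10 carbonic anhydrase genes (log axis, linear below 0.1), ordered by mean, with 1 point per library and a line at the mean of 3. Gas2l3 -/- libraries are red and to the left of the blue wildtype libraries; the dotted line marks 1 FPKM. Car14 lies above every other member, the Car4 points of the groups do not overlap, and Car3 has 1 high library at 12.6 FPKM.

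The step from Car14 to Car2 was the only gap among the 5 most abundant members that exceeded the spread within both groups. In Gas2l3 -/- hearts the lowest Car14 value was 31.3 FPKM and the highest Car2 value 14.3 FPKM; in wildtype hearts they were 41.0 and 9.48 FPKM. The ranges of Car2 and Car8, the next neighbours, overlapped in both groups, though Car2 was above Car8 within each library. The place of Car4 differed by group: it held place 8 of 10 in Gas2l3 -/- hearts, where its range lay below that of Car9, and place 4 in wildtype hearts, where its range overlapped those of Car8 and Car11.

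The promoters of Car14, Car4 and Car9 are shown because Car14 was the most abundant member, Car4 differed most between the groups and Car9 is a known target of hypoxia-inducible factors. Each is the 250 bases before the annotated start, on the gene's own strand, from RefSeq (GRCm38.p6, the same build as mm10). Capitals mark ACGTG, the core of the hypoxia response element, searched on both strands and printed as CACGT where it lies on the opposite strand. The windows are chr3:95904686-95904935 (minus strand) for Car14, chr11:84957504-84957753 (plus strand) for Car4 and chr4:43506776-43507025 (plus strand) for Car9.
Car14: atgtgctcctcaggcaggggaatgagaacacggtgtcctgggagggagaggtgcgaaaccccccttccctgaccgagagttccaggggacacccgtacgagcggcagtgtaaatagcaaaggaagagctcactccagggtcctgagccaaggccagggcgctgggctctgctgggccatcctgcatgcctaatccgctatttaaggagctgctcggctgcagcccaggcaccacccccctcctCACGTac
Car4: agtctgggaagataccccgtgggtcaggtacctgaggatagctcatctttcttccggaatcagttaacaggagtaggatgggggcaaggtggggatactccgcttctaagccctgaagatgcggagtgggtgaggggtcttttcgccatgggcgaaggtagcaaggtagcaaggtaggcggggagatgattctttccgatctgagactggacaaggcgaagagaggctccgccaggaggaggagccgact
Car9: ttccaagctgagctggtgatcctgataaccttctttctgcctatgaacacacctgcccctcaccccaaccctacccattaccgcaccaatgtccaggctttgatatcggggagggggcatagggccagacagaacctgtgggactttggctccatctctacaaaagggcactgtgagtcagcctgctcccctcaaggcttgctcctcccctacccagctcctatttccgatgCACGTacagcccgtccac
The motif stood at positions -7 to -3 of Car14 and -18 to -14 of Car9, counted back from -1 at the base before the start, both on the opposite strand. No ACGTG was found in the Car4 window. RefSeq windows were matched for 6 of the 10 genes, 7 windows in all. Of these windows 2 (28.6%) held the motif, against 16.6% of 32851 promoter windows of all genes. The windows end at the RefSeq starts, which differ from the GENCODE gene bounds given for each gene. By those bounds Car9 begins upstream of its motif, and the Car14 motif spans the gene's outer bound. A match describes letters and is not a measured site.

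The 10 genes summed to 61.7, 76.8 and 51.6 FPKM in Gas2l3 -/- replicates 1, 2 and 3 and to 61.5, 72.3 and 96.9 FPKM in wildtype replicates 1, 2 and 3. The groups overlapped in this sum, at 63.3 ± 12.7 FPKM and 76.9 ± 18.2 FPKM (SD, n = 3 each). Car14 took 55.5%, 53.4% and 60.6% of the sum in the Gas2l3 -/- libraries and 66.7%, 64.8% and 76.8% in the wildtype libraries. Its share was lower in each Gas2l3 -/- library than in any wildtype library. Shares of 1 sum depend on one another, so a lower Car14 share raises the others, and a higher share of another member lowers that of Car14. Car2 took 23.1% of the sum in Gas2l3 -/- replicate 1 and 5.11% to 13.3% elsewhere. Car3 took 16.5% in Gas2l3 -/- replicate 2 and 0.82% to 2.02% elsewhere.

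**Figure D2:**
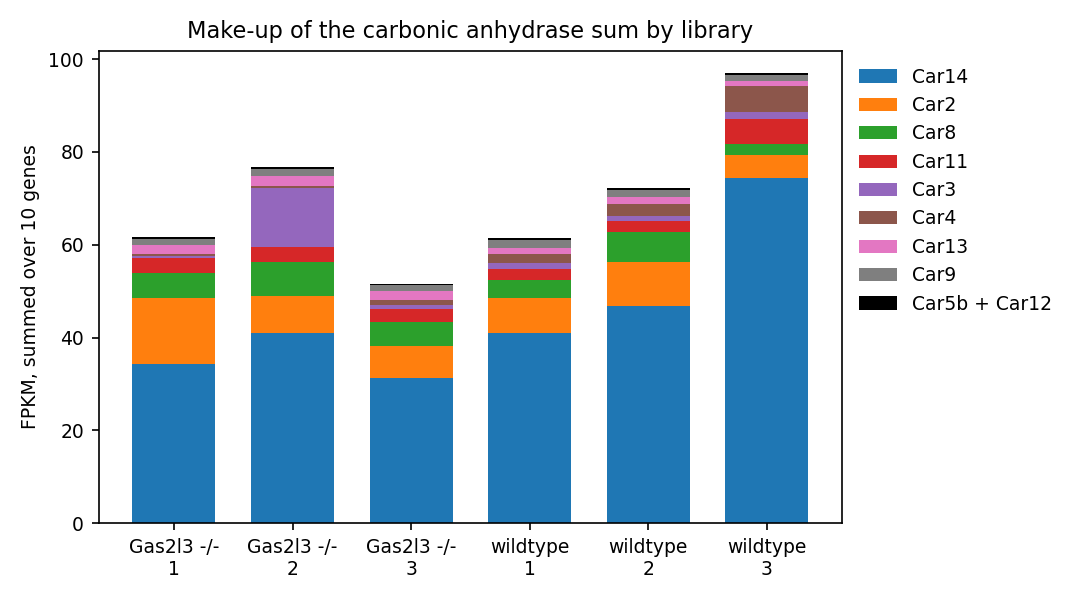
Stacked FPKM of the 10 genes in each of the 6 libraries, Gas2l3 -/- on the left and wildtype on the right. Car14 makes up most of each bar, wildtype replicate 3 has the highest sum at 96.9 FPKM, and Car3 is a visible block in Gas2l3 -/- replicate 2.

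Grouped by where the proteins act, the membrane-bound members (Car4, Car9, Car12 and Car14) summed to 37.8 ± 5.07 FPKM in Gas2l3 -/- and 59.2 ± 19.5 FPKM in wildtype hearts, without overlap (33.7 to 43.5 FPKM against 44.9 to 81.4 FPKM). Their difference of −21.4 FPKM (Gas2l3 -/- minus wildtype) was −10.3 FPKM without wildtype replicate 3 and −14.2 FPKM with libraries scaled to 1 total FPKM. Most of the membrane-bound sum was Car14, at a mean of 35.5 FPKM in Gas2l3 -/- and 54.1 FPKM in wildtype hearts. The groups overlapped for Car14 alone. The cytosolic members (Car2, Car3 and Car13) summed to 16.4 ± 6.35 FPKM in Gas2l3 -/- and 9.86 ± 2.25 FPKM in wildtype hearts, and overlapped (9.87 to 22.5 FPKM against 7.56 to 12.1 FPKM). With Car3 left out, the cytosolic sums were 11.6 ± 3.99 and 8.57 ± 2.54 FPKM and also overlapped. The members without catalytic activity (Car8 and Car11) summed to 9.02 ± 1.37 FPKM in Gas2l3 -/- and 7.57 ± 1.25 FPKM in wildtype hearts, and overlapped. The mitochondrial member Car5b was at 0.159 ± 0.0678 and 0.309 ± 0.119 FPKM.

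Car14 encodes a single-pass membrane isozyme whose catalytic domain faces outward, known from the sarcolemma and sarcoplasmic reticulum of mouse heart. The gene lies on chromosome 3, 95897768 to 95904691 on the minus strand (mm10; ENSMUSG00000038526.14). It was at 34.2, 41.0 and 31.3 FPKM in Gas2l3 -/- replicates 1, 2 and 3, against 41.0, 46.8 and 74.5 FPKM in wildtype replicates 1, 2 and 3. The groups touched: Gas2l3 -/- replicate 2 (41.04 FPKM) was just above wildtype replicate 1 (40.99 FPKM), and wildtype replicate 3 was far above the rest. Reads for Car14 numbered 350 to 358 in Gas2l3 -/- and 249 to 735 in wildtype libraries.

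The log2 fold change of Car14 on the log2(FPKM + 0.5) scale was −0.56 (moderated SE 0.31), and Gas2l3 -/- was lower in 3 of 3 pairs of libraries of the same replicate number. Without wildtype replicate 3 the fold change was −0.31, and without wildtype replicate 1 it was −0.74. Of the 9 cardiomyocyte markers 8 also had lower means, with a median log2 fold change of −0.40 against −0.0089 over all 12121 genes. The marker median was −0.53 to −0.19 with 1 library left out and −0.22 with libraries scaled to 1 total FPKM. The marker with a higher mean was Nppa, which encodes atrial natriuretic peptide, at 5703 ± 1005 FPKM in Gas2l3 -/- and 1904 ± 759 FPKM in wildtype hearts, and its groups did not overlap. Their summed level was 37195 to 39937 FPKM in Gas2l3 -/- and 35979 to 54503 FPKM in wildtype hearts. The part of cardiomyocyte content in the Car14 difference was not tested.

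Car4 encodes an isozyme held on the outer cell surface by a lipid anchor, known from capillary endothelium and from cardiac muscle. The gene lies on chromosome 11, 84957786 to 84966044 on the plus strand (mm10; ENSMUSG00000000805.18). Its level was 0.358, 0.573 and 1.005 FPKM in Gas2l3 -/- replicates 1, 2 and 3, against 2.06, 2.64 and 5.57 FPKM in wildtype replicates 1, 2 and 3. The groups did not overlap: the highest Gas2l3 -/- library was below the lowest wildtype library. Means were 0.645 ± 0.329 and 3.42 ± 1.88 FPKM (SD, n = 3 each).

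Few reads lay behind Car4. Gas2l3 -/- replicates 1, 2 and 3 held 3, 4 and 9 reads, and wildtype replicates 1, 2 and 3 held 10, 26 and 44 reads. Exact 95% Poisson intervals, which cover counting error only, ran from 0.619 to 8.77 for 3 reads, from 4.12 to 17.1 for 9 reads and from 4.80 to 18.4 for 10 reads. The intervals of Gas2l3 -/- replicate 3 and wildtype replicate 1 overlap widely. Wildtype replicate 1 was also the library with the fewest reads in all, which FPKM corrects for and raw reads do not.

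Car4 had a log2 fold change of −1.71 (SE 0.39), the largest in size among the 8 fitted members. It was lower in 3 of 3 same-numbered pairs and ran from −1.97 without wildtype replicate 1 to −1.35 without wildtype replicate 3. The authors' deposited table gave a log2 fold change of −1.097 (SE 0.31), on its own scale. In bulk tissue, fewer cells of a type and less RNA per cell cannot be told apart. Of 8 capillary markers, 2 had higher and 6 lower means (median log2 fold change −0.21; 4 and 4 with libraries scaled to 1 total FPKM), and their sum was 865 to 1931 FPKM in Gas2l3 -/- and 805 to 1320 FPKM in wildtype hearts. Of 8 endothelial markers, 4 had higher and 4 lower means (median 0.0012), with sums of 431 to 522 FPKM and 348 to 853 FPKM. With 1 library left out the capillary median ran from −0.48 to 0.16 and the endothelial median from −0.30 to 0.39, so neither list has a stable direction. The part of capillary or endothelial content in the Car4 difference was not tested.

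Car9 encodes a membrane isozyme that hypoxia induces in many tissues. It was at 1.42, 1.71 and 1.26 FPKM in Gas2l3 -/- replicates 1, 2 and 3 and at 1.77, 1.48 and 1.34 FPKM in wildtype replicates 1, 2 and 3. The groups overlapped fully and the log2 fold change was −0.05 (SE 0.27), on 13 to 22 reads per library, and turned positive in 5 of 15 alternatives. Car9 lies on chromosome 4, 43506966 to 43513729 on the plus strand (mm10; ENSMUSG00000028463.14). Car12, a membrane isozyme of epithelia and tumours, had 3 to 5 reads per Gas2l3 -/- library and 0 to 8 per wildtype library, and was listed at 0 in wildtype replicate 3. At this depth no difference in Car12 was detectable.

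Car2 encodes the fast cytosolic isozyme that red blood cells carry in large amounts and many other cells also express. Car13, Car1, Car3 and Car2 lie side by side on chromosome 3, within 259 kb from 14641727 to 14900770 (mm10), and Car14 lies 81.0 Mb further along. Car2 was at 14.3, 7.89 and 6.88 FPKM in Gas2l3 -/- replicates 1, 2 and 3 and at 7.45, 9.48 and 4.95 FPKM in wildtype replicates 1, 2 and 3. The groups overlapped, with Gas2l3 -/- replicate 1 above the other 5 libraries. Its log2 fold change was 0.36 (SE 0.35), and 0.056 without Gas2l3 -/- replicate 1.

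Erythroid markers were highest in the same library. Their sum was 125 FPKM in Gas2l3 -/- replicate 1 and 29.5 to 50.7 FPKM in the other 5 libraries, led by Alas2, the first enzyme of red cell heme synthesis. Across the groups the sum was 30.1 to 125 FPKM in Gas2l3 -/- and 29.5 to 50.7 FPKM in wildtype hearts. Of the 12 markers, which include Car1, 10 were in the table, and the 4 globin genes among them are listed at 0 in every library. Car1, the other red cell isozyme, had 3, 0 and 1 reads in Gas2l3 -/- replicates 1, 2 and 3 and 0 in each wildtype library. The part of red cells in the Car2 values was not tested.

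Car3 encodes a cytosolic isozyme of low activity that is abundant in slow skeletal muscle and in fat cells. It was at 0.506, 12.6 and 1.04 FPKM in Gas2l3 -/- replicates 1, 2 and 3 and at 1.22, 1.03 and 1.61 FPKM in wildtype replicates 1, 2 and 3. Gas2l3 -/- replicate 2 alone was high, with 104 reads against 5 to 15 in each other library. The log2 fold change was 0.62 (SE 0.83) with it and −0.51 without it. No direction can be given for Car3 between the groups.

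Most of the 7 fat cell markers, but not Lep and Pparg, stood out in that same library. Adipoq, which encodes adiponectin, was at 1.81 FPKM (12 reads) in Gas2l3 -/- replicate 2 and listed at 0 in Gas2l3 -/- replicates 1 and 3, and at 0, 0.320 and 0.133 FPKM in wildtype replicates 1, 2 and 3. Plin1, Cidec, Cfd and Ucp1 were at 0.582, 0.540, 1.20 and 1.02 FPKM in Gas2l3 -/- replicate 2, on 5 to 9 reads each, and at 0 in the other 5 libraries. Lep had 0 reads in Gas2l3 -/- replicate 2. Pparg was at 2.56 FPKM there, below the 2.74 FPKM of Gas2l3 -/- replicate 3. The 7 fat cell markers summed to 7.71 FPKM in Gas2l3 -/- replicate 2, against 1.69 to 2.74 FPKM elsewhere, nearly all of it Pparg; the group ranges were 2.33 to 7.71 FPKM in Gas2l3 -/- and 1.69 to 2.34 FPKM in wildtype hearts. The sum of 13 skeletal muscle markers was 20.0 to 33.9 FPKM in Gas2l3 -/- and 36.2 to 51.6 FPKM in wildtype hearts, 31.4 FPKM in Gas2l3 -/- replicate 2, and Myod1, Pax7 and Myf5 were at 0 in every library. The part of fat tissue in the Car3 value was not tested.

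**Figure D3:**
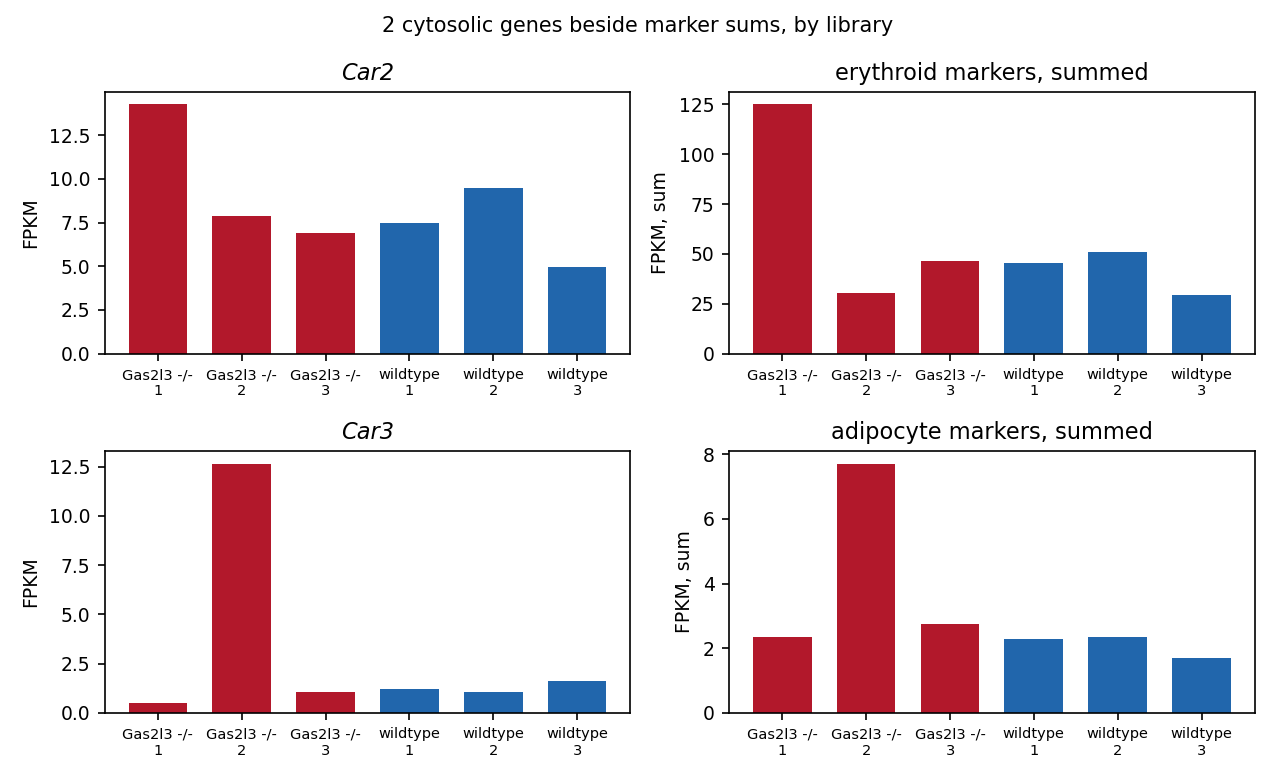
FPKM of Car2 and Car3 (left) and the summed FPKM of erythroid and adipocyte markers (right) in each library, Gas2l3 -/- in red and wildtype in blue. Gas2l3 -/- replicate 1 is highest for Car2 and erythroid markers, and Gas2l3 -/- replicate 2 for Car3 and adipocyte markers.

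Car13 encodes another cytosolic isozyme and spans 14641727 to 14663002 of chromosome 3 on the plus strand (mm10; ENSMUSG00000027555.8). It was at 1.95, 2.02 and 1.95 FPKM in Gas2l3 -/- replicates 1, 2 and 3, above the 1.28, 1.54 and 0.999 FPKM of wildtype replicates 1, 2 and 3. The groups did not overlap, and the Gas2l3 -/- libraries were close together. The log2 fold change was 0.49 (SE 0.27), between 0.38 and 0.60 with 1 library left out, on 11 to 31 reads per library. The exact 95% Poisson interval of the 29 reads in Gas2l3 -/- replicate 1 ran from 19.4 to 41.6. Counting error was thus wider than the spread of the Gas2l3 -/- reads (25 to 31). Car5b, a mitochondrial isozyme encoded on the X chromosome, had 2 to 4 reads per Gas2l3 -/- library and 4 to 9 per wildtype library, too few for a comparison.

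Car8 and Car11 encode proteins of the family that have lost catalysis; Car8 protein is known to bind the inositol trisphosphate receptor. Car8 was at 5.48, 7.32 and 5.18 FPKM in Gas2l3 -/- replicates 1, 2 and 3 and at 3.91, 6.35 and 2.32 FPKM in wildtype replicates 1, 2 and 3. The groups overlapped, and Gas2l3 -/- was higher in 3 of 3 same-numbered pairs, with replicate 2 highest in both groups. The log2 fold change was 0.55 (SE 0.35), and 0.23 without wildtype replicate 3. Car8 lies on chromosome 4, 8143362 to 8239041 on the minus strand (mm10; ENSMUSG00000041261.9), and Car11 on chromosome 7, 45699843 to 45704682 on the plus strand (ENSMUSG00000003273.14). Car11 was at 3.12, 3.23 and 2.72 FPKM in Gas2l3 -/- and at 2.41, 2.47 and 5.26 FPKM in wildtype replicates 1, 2 and 3. Its log2 fold change was −0.065 (SE 0.32) and turned to 0.26 without wildtype replicate 3, so no direction can be given.

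Of the 8 fitted members, 4 had higher and 4 lower means on the log2 scale in Gas2l3 -/- hearts, beside 5937 higher and 6184 lower of all genes. With libraries scaled to 1 total FPKM, which moved the median of all genes to 0.15 (−0.0089 as deposited), 6 members were higher and 2 (Car4 and Car14) lower, beside 8210 higher and 4013 lower of all genes. None was called by limma at an adjusted p under 0.05 over all 12121 genes, where 0.00% of genes were called. Limma gave 394 genes (3.25%) an unadjusted p under 0.05, 1 of them a member, and limma-voom on the recovered reads gave 0 calls and 375 such genes, 1 of them a member. Groups did not overlap, with Gas2l3 -/- lower, for 1 member (Car4), against 4.74% of all genes fitted, and with Gas2l3 -/- higher for 1 (Car13), against 5.02%. Same-numbered pairs were lower in 3 of 3 for Car4 and Car14, against 13.8% of genes, and higher in 3 of 3 for Car8 and Car13, against 16.6%. The members were chosen with this contrast known, so nothing is read from these counts. The authors' deposited table called none of the 7 members with an adjusted p, where 0.0735% of 12243 genes were called.

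**Figure D4:**
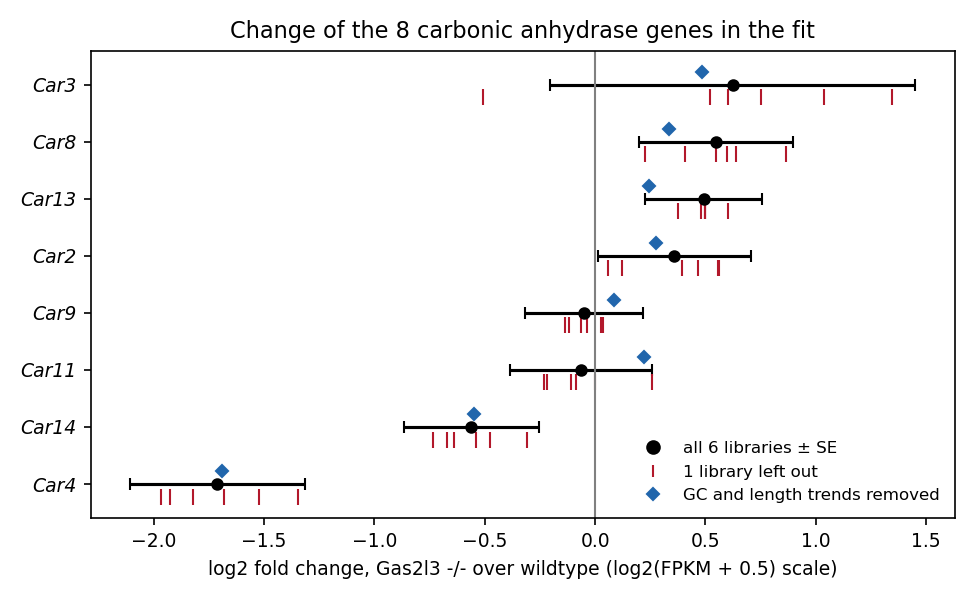
Log2 fold change of the 8 fitted genes, Gas2l3 -/- over wildtype, on the log2(FPKM + 0.5) scale. Black points are fits to 6 libraries with the moderated SE, red ticks are fits with 1 library left out, and blue diamonds are fits after removal of trends in GC content and length. Car4 stays below −1 in each fit shown, while Car3, Car9 and Car11 lie on both sides of 0.

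Libraries differed in how values followed GC content, so the members were also set out with trends in GC content and length removed. Car14 then stood at 5.31, 5.19 and 4.995 on the log2 scale in Gas2l3 -/- replicates 1, 2 and 3 and at 5.62, 5.49 and 6.05 in wildtype replicates 1, 2 and 3, and its groups no longer overlapped. Its log2 fold change was −0.55 (SE 0.20). Car4 stood at 0.033, −0.15 and 0.62 in Gas2l3 -/- and at 1.66, 1.51 and 2.39 in wildtype hearts, with a log2 fold change of −1.69 (SE 0.32). On these values 2 members (Car4 and Car14) did not overlap and were lower, against 8.51% of 11709 genes, and 0 were higher, against 6.53%. Limma on these values called 0 members, against 0.0171% of genes. Car13, low in GC content at 41.7%, overlapped: 1.05, 1.20 and 1.30 in Gas2l3 -/- and 0.59, 0.97 and 1.26 in wildtype replicates 1, 2 and 3. Its log2 fold change was then 0.24, and that of Car8, with a GC content of 42.3%, was 0.33.

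**Figure D5:**
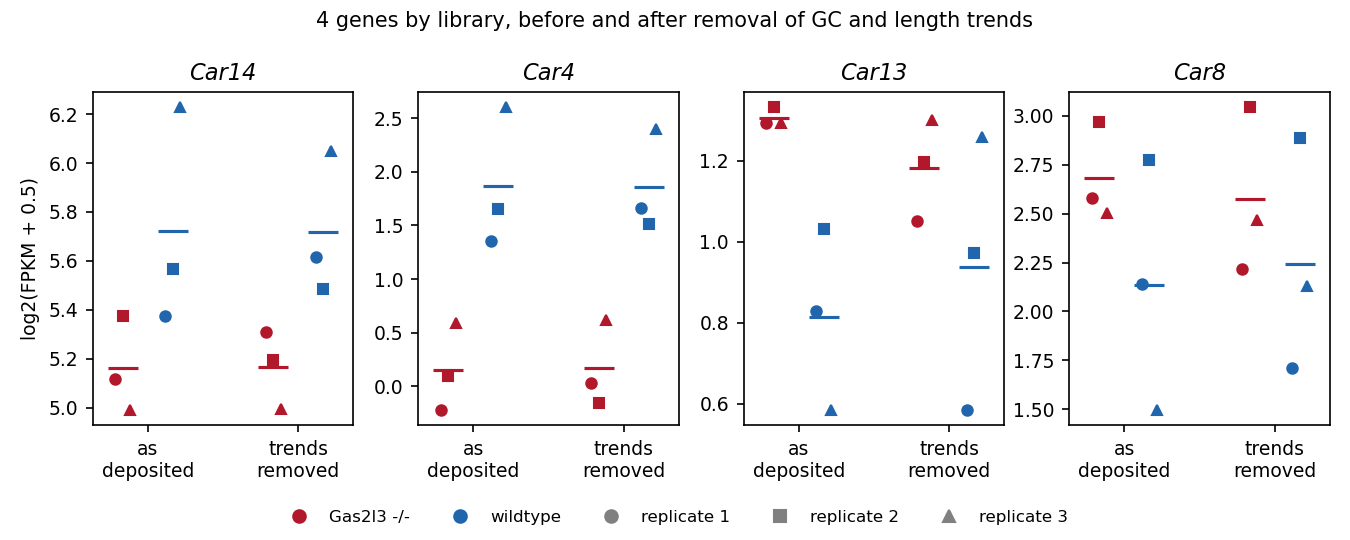
Log2(FPKM + 0.5) of Car14, Car4, Car13 and Car8 by library, as deposited and after removal of trends in GC content and length, with red Gas2l3 -/- points left of blue wildtype points and a line at each mean of 3. With trends removed Car14 no longer overlaps, Car13 does, and Car4 stays apart.

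Of the remaining carbonic anhydrase symbols, Car7 and Car15 also reached 1 FPKM in at least 3 libraries. Car7 averaged 1.39 FPKM on 108 reads over 6 libraries, and Car15 1.83 FPKM on 69 reads. The mean of Car15 was thus above those of the members Car13 (1.62 FPKM) and Car9 (1.498 FPKM). Car7, a cytosolic isozyme known from brain, was at 0.359, 0.949 and 1.14 FPKM in Gas2l3 -/- and at 1.11, 0.977 and 3.81 FPKM in wildtype replicates 1, 2 and 3. Car15, a surface isozyme with a lipid anchor, was at 1.79 ± 0.220 FPKM in Gas2l3 -/- and 1.86 ± 0.935 FPKM in wildtype hearts. Both overlapped between the groups. Car5a, Car6 and Car10 are listed at 0 in every library, and Car1 held 4 reads in all.

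Partners of the family in acid and base transport were set beside it by list. Of 20 genes of bicarbonate and chloride exchange 9 were fitted, 4 with higher and 5 with lower means (median log2 fold change −0.047), and 0 were called. No direction can be given for this median, which was −0.55 over genes averaging 5 FPKM or more, 0.11 with libraries scaled to 1 total FPKM, and −0.27 to 0.096 with 1 library left out. Slc4a3, the cardiac anion exchanger, was at 22.2 ± 0.620 FPKM in Gas2l3 -/- and 34.5 ± 13.1 FPKM in wildtype hearts (SD, n = 3 each), and its groups overlapped. Slc4a2, a related anion exchanger, was at 16.2 ± 0.182 and 21.9 ± 10.2 FPKM. The sodium-bicarbonate cotransporter gene Slc4a4 was at 4.35 ± 1.10 and 4.67 ± 2.03 FPKM, and Slc26a10 at 9.81 ± 2.07 and 15.5 ± 6.72 FPKM. In each of these 4 the wildtype spread was the wider. Wildtype replicate 3 was the highest library for Slc4a3, Slc4a2 and Slc26a10 (46.4, 33.5 and 22.3 FPKM). Wildtype replicate 1 was the highest for Slc4a4 (6.98 FPKM).

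Of 19 genes of proton and lactate export 15 were fitted, 7 with higher and 8 with lower means (median −0.011; −0.13 to 0.18 with 1 library left out and 0.16 at 1 total FPKM), and 0 were called. Groups did not overlap with Gas2l3 -/- higher for 2 of the 15 genes, against 5.02% of all genes fitted. With Gas2l3 -/- lower they did not overlap for 1, against 4.74%. Bsg, which encodes the chaperone of lactate transporters, was at 467 ± 15.2 FPKM in Gas2l3 -/- and 613 ± 408 FPKM in wildtype hearts. The lactate transporter gene Slc16a1 was at 73.1 ± 6.14 and 54.2 ± 25.6 FPKM, and Slc16a3 at 52.4 ± 10.04 and 72.3 ± 50.3 FPKM. Slc9a3r2, a scaffold of sodium-proton exchangers, was at 36.9 ± 4.77 and 65.9 ± 48.0 FPKM. Wildtype replicate 3 was the highest library for Bsg, Slc16a3 and Slc9a3r2, at 1084, 130 and 121 FPKM. Wildtype replicates 1 and 2 were at 367 and 388 FPKM for Bsg, below the lowest Gas2l3 -/- library (451 FPKM). They were at 52.4 and 34.9 FPKM for Slc16a3 and at 34.0 and 42.5 FPKM for Slc9a3r2. For Slc16a1, wildtype replicate 3 was the lowest library, at 32.8 FPKM. Of 7 gas and water channel genes 4 were fitted, 1 higher and 3 lower (median −0.38), with 0 called; Aqp1, the water channel of capillaries, was at 40.9 ± 8.27 FPKM in Gas2l3 -/- and 66.0 ± 38.4 FPKM in wildtype hearts. Aqp1 was at 39.7, 48.2 and 110 FPKM in wildtype replicates 1, 2 and 3. The log2 fold change was −0.20 for Aqp4 (SE 0.37), 0.29 for Aqp8 (SE 0.53) and −0.90 for Aqp7 (SE 0.38). The groups did not overlap for Aqp7, as for 4.74% of all genes fitted with Gas2l3 -/- lower.

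A list of carboxylases and related enzymes that consume bicarbonate, mostly mitochondrial but with the cytosolic acetyl-CoA carboxylase gene Acaca, had 7 of 8 genes fitted, 4 higher and 3 lower (median 0.024), with 0 called. Pccb, a subunit of propionyl-CoA carboxylase, was at 48.2 ± 5.90 FPKM in Gas2l3 -/- and 47.9 ± 10.9 FPKM in wildtype hearts. Mccc1 and Mccc2, subunits of methylcrotonyl-CoA carboxylase, had a log2 fold change of 0.12 (SE 0.32) and 0.16 (SE 0.24). Acacb, the acetyl-CoA carboxylase of the mitochondrial surface, had one of −0.37 (SE 0.30). All 24 genes of the hypoxia-induced list were fitted, 13 with higher and 11 with lower means (median 0.065), and 0 were called. With libraries scaled to 1 total FPKM, 18 were higher and 6 lower, beside 8210 higher and 4013 lower of all genes. Ldha, a lactate dehydrogenase subunit, was at 1078 ± 48.6 FPKM in Gas2l3 -/- and 1132 ± 216 FPKM in wildtype hearts. Pgk1, a glycolytic kinase, was at 302 ± 21.3 and 201 ± 60.2 FPKM. Groups did not overlap for 4 genes of the list, with Pgk1, Bnip3 and Adm higher and Ndrg1 lower in Gas2l3 -/- hearts. Over all genes fitted, 5.02% were higher and 4.74% lower without overlap. Egln1, an oxygen-sensing prolyl hydroxylase, had a log2 fold change of 0.083 (SE 0.27), and Higd1a one of 0.21 (SE 0.37).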

How the data were processed

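Poly(A) RNA of embryonic hearts was made into libraries with 13 PCR cycles, per the labels' protocols. FastQC, DESeq2 and mm10 are named, per the submitters' processing notes. No source used here gives the aligner, the counter, the annotation or the use of strand. The authors deposited FPKM per gene and library, with unequal sums of 429622 to 788996 per library, and a table of their own comparison. Whole reads were recovered from both deposited tables: 100% of 94235 values above 0 were whole within 0.01.

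Limma (version 3.58.1, R 4.3.3; intensity trend, two-sided) was fitted on log2(FPKM + 0.5) to the 12121 genes with 1 FPKM or more in at least 3 libraries, with Benjamini-Hochberg adjustment over all of them and calls under 0.05. Folds on this scale understate changes of low genes. Libraries of the same number deviated together (correlations across genes of 0.472, 0.443 and 0.186), so the numbers were taken as pairs, from the data and not the labels. With GC and length trends removed, these correlations fell to 0.275, 0.385 and 0.116 for replicates 1, 2 and 3. The main fit held no replicate term, so the limma SEs given for members are unpaired. With a replicate block the SE was 0.25 for Car4 (0.39 without), 0.25 for Car8 (0.35 without) and 0.27 for Car2 (0.35 without). That of Car14 was 0.31 either way. Loess curves (span 0.3) were subtracted in each library, first over GC content, found for 96.6% of fitted genes in GENCODE M21 transcripts, and then over length implied by reads per FPKM; this fit without pairs was chosen after seeing the data. Coordinates are 1-based.

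The rule for naming took all members, other carbonic anhydrases, Gas2l3 and the 4 most abundant fitted genes of each list. It also took the 3 most abundant markers of each cell type and, for members at 5 FPKM or more, the 3 most correlated genes. Of those markers only Myl2, Alas2 and Pparg are named above. Lists of smooth muscle, fibroblast, epicardial, macrophage, neural, and lung and liver markers were computed and are not described. Marker genes beside Car2 and Car3, and Myod1, Pax7, Myf5, Nppa, Acaca, Bnip3, Adm and Ndrg1, were also named after their values were seen. Members and lists were chosen with earlier results of these data known.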

Additional observations from a re-analysis of the deposited data

How the results depend on the processing

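Under 16 alternatives (a pseudocount of 0.1 or of 1, every gene kept, genes at 5 FPKM or more on average, a common total, no intensity trend, limma-voom, the replicate block with and without trend removal, trend removal alone, and each library left out), limma called 0 carbonic anhydrase genes. Over all genes it called 0 in each, except 2 with GC and length trends removed (Ppp1r1b and Cacng6, named after their values were seen); the cause was not tested. With 1 library left out, calls ranged from 0 to 0 for all genes and for members. With the replicate block, 0 genes and 0 members were called, as with the block after trend removal. Pairing thus changed no call on the values as deposited. With trends removed, the 2 genes called without pairs were not called with them. Of 123 member fold changes under these alternatives, 10 had the other sign: Car9 in 5, Car11 in 4 and Car3 in 1. The fold change of Car4 was −2.31 with limma-voom and −1.36 with a pseudocount of 1, and that of Car13 was 0.24 with trends removed. A common total moved the median of all genes to 0.15, and Car14 to −0.38 and Car4 to −1.58. Car5b and Car12 had no more than 9 reads in any library, and no fold change is given for them. Among the fitted members Car4 had the fewest reads, 96 over 6 libraries.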

Other observations

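For the 3 members with a mean of 5 FPKM or more, the fitted genes whose log2(FPKM + 0.5) was most like theirs over the 6 libraries were listed by Pearson correlation, as a description. Car14 was most like Cdkn2d (0.999), Gadd45b (0.998) and Irx4 (0.997). Each of these was highest in wildtype replicate 3: Cdkn2d was at 51.0 to 75.1 FPKM in Gas2l3 -/- hearts and at 76.9, 93.3 and 203 FPKM in wildtype replicates 1, 2 and 3. Car8 was most like Cbr4 (0.997), Yaf2 (0.995) and Tmem70 (0.995), each lowest in wildtype replicate 3. Car2 was most like Zfp942 (0.970), Svip (0.967) and Fam220a (0.964), each highest in Gas2l3 -/- replicate 1. These rankings come from 6 points that share library trends in GC content and length.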
